A study of Sus scrofa with 8 samples.

Results

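Iron handling in the aging liver was followed through 10 genes named for iron sensing, storage and export: HAMP, TFRC, TFR2, TF, FTH1, FTL, SLC40A1, SLC11A2, HFE and HMOX1. They were chosen by gene symbol, and 5 of the 10 had a row among the 21607 mRNA identifiers, namely TF (ENSSSCG00000011640), TFRC (ENSSSCG00000011848), TFR2 (ENSSSCG00000007671), FTL (ENSSSCG00000003153) and SLC40A1 (ENSSSCG00000027157). HAMP, HFE, SLC11A2 and HMOX1 have Ensembl pig identifiers that match none of those rows, and FTH1 has no identifier in the table of names used, so these 5 genes were not analysed here. Liver RNA came from healthy, unrelated Yanan sows, a Chinese indigenous breed. There were 2 young sows of 180 days and 2 old sows of 8 years, with 1 rRNA-depleted library per sow. Per the paper, the young sows had never given birth, and the old sows were culled after years of bearing litters. Age and breeding history therefore cannot be told apart in this design. The labels name no treatment and no modified allele, and all 4 were kept without food in the night before slaughter.

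Iron travels in plasma bound to transferrin (TF), which the liver secretes, and enters cells when loaded transferrin binds the transferrin receptor (TFRC). Hepatocytes also carry transferrin receptor 2 (TFR2), which senses loaded transferrin and, with HFE and hemojuvelin, feeds the BMP and SMAD signal that drives the hormone hepcidin (HAMP). Iron that is not used is stored inside shells of ferritin heavy (FTH1) and light (FTL) chains, and leaves the cell through ferroportin (SLC40A1), which hepcidin removes from the membrane. When iron is scarce, the iron regulatory proteins bind hairpins in these mRNAs, which protects TFRC mRNA and holds back the translation of ferritin and ferroportin, so an mRNA level is not a protein level.

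The mRNA rows held 37555696 and 37125093 reads in young livers against 22482241 and 24866406 in old livers. Values are given in CPM, reads of a gene divided by the total of its library and scaled to a common size. They carry no correction for gene length, so each gene is compared only with itself across livers. This deposited scale places mRNAs lower in old livers than scaling to mRNA reads does. On it 24.4% of all mRNAs tested were higher and 25.0% lower in both old livers, against 30.1% and 17.7% when scaled to mRNA reads. ALB, the plasma albumin of hepatocytes, was between 16530 and 35210 CPM in every library, and TTR, the hepatocyte carrier of thyroid hormone and retinol-binding protein, between 1658 and 7797. Old replicate 1 stood apart: all 20 interferon-stimulated genes with a row, of 28 listed, were above both young livers there, with a summed value of 2196 CPM against 85.2 in old replicate 2 and 102 and 119 in the young livers. The fold change of each of the 5 iron genes is therefore also given without old replicate 1. In bulk tissue, fewer cells of a type and less RNA per cell cannot be told apart.

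Between young and old livers, ferroportin was the iron gene with the largest difference among the 5. Its mRNA averaged 28.1 ± 5.71 CPM in young livers and 9.35 ± 7.02 in old livers (SD, n = 2 each), 3.01-fold lower in old livers on the deposited scale. TFR2 had the opposite order, 40.9 ± 0.266 CPM against 74.8 ± 24.9, which is 1.83-fold higher in old livers. TFRC was lower in both old livers on the deposited scale but overlapped between the ages under TMM, median-of-ratios and mRNA-read scaling, and TF and FTL overlapped between the ages. None of the 5 genes passed the thresholds of an adjusted p-value under 0.05 and an absolute log2 fold change above 1 in limma, and 0% of the 16898 mRNAs tested did. Before adjustment, 0 of the 5 had a p-value under 0.05 in limma, against 15.7% of all mRNAs tested, and the quasi-likelihood and exact tests of edgeR on recovered reads gave 1 and 0, against 14.6% and 11.3%.

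**Figure D1:**
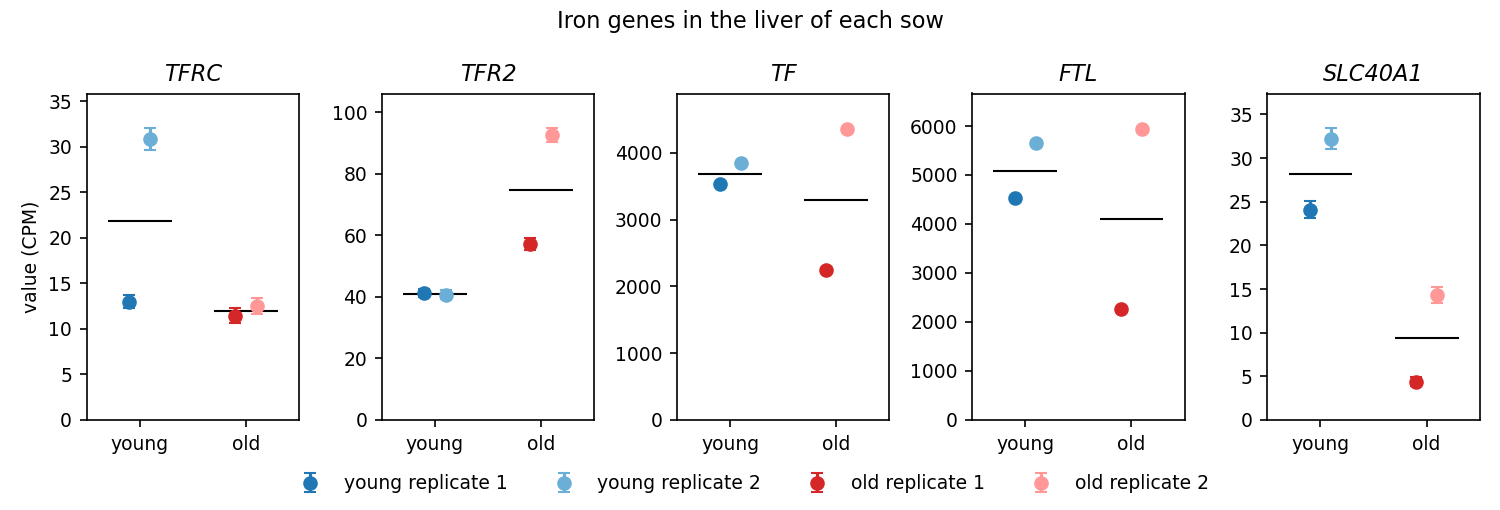
Values of the 5 iron genes in CPM in each liver, with young livers in blue and old livers in red, group means as black lines and 95% counting intervals as error bars. Both old livers lie below both young livers for SLC40A1 and, on this scale but not after rescaling, for TFRC, and above them for TFR2, whereas old replicate 1 is lowest and old replicate 2 highest for TF and FTL.

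The age groups did not overlap for 3 of the 5 genes. TFR2 was higher in both old livers, where 24.4% of all mRNAs tested were, and TFRC and SLC40A1 were lower in both, where 25.0% were. An exact permutation test of 2 livers against 2 cannot give a two-sided p-value below 0.3333, which is the value that these 3 genes reached. TF and FTL gave 1. The median log2 fold change of the 5 genes was -0.47, against -0.02 over all mRNAs tested, and it was 0.23 without old replicate 1 and -0.76 without old replicate 2.

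Transferrin, the plasma carrier, was listed at 3527 and 3851 CPM in young replicates 1 and 2 and at 2249.99 and 4351 in old replicates 1 and 2. The old livers lay on either side of the young ones, and differed from each other 1.93-fold while the young livers differed 1.09-fold. Its log2 fold change was -0.24 (standard error, SE, 0.39, 95% interval -1.42 to 0.95, limma adjusted p = 0.824), and it was 0.24 without old replicate 1. Between 138463 and 333315 reads stood behind each of these values, so counting error is far smaller than the distance between the old livers. In the RefSeq annotation of Sscrofa11.1, 2 loci carry the symbol TF, and reads shared between near-identical copies could have been divided differently by the counting, so the level of TF is uncertain.

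The receptor that takes up loaded transferrin, TFRC, was at 13.0 and 30.8 CPM in young livers against 11.4 and 12.5 in old livers. Young replicate 2 was high, and the other 3 livers lay close together. The 95% counting interval of young replicate 1 (12.2 to 13.7, from 1191 reads) overlapped that of old replicate 2 (11.7 to 13.3, from 897 reads), so their order is within counting error, and that of young replicate 2 was 29.6 to 32.0 from 2666 reads. Intervals of this kind cover counting error alone, since PCR copies are not independent molecules. The log2 fold change was -0.70 (SE 0.48, 95% interval -2.16 to 0.75, limma adjusted p = 0.571). It rested on young replicate 2, without which it was -0.11, and it was -1.30 without young replicate 1 and -0.64 without old replicate 1. With libraries rescaled by TMM factors, young replicate 1 (11.9) lay below both old livers (12.3 and 13.4), and the age groups overlapped, as they did under median-of-ratios and mRNA-read scaling.

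TFR2, which hepatocytes use to sense loaded transferrin, was at 41.1 and 40.7 CPM in young livers against 57.2 and 92.4 in old livers. Both old livers were above both young livers, and old replicate 2 was the higher of the old pair. The young livers differed 1.01-fold and the old livers 1.62-fold. Its log2 fold change was 0.81 (SE 0.29, 95% interval -0.06 to 1.69, limma adjusted p = 0.340), with 1.16 without old replicate 1 and 0.47 without old replicate 2. Old livers were above young livers under each scaling that was tried, where the log2 fold change lay between 0.99 and 1.05.

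Ferritin light chain, the storage gene that had a row, was at 4526 and 5655 CPM in young livers against 2264 and 5932 in old livers. Old replicate 1 was lower than every other liver and old replicate 2 was higher, a difference of 2.62-fold within the old pair. The log2 fold change was -0.47 (SE 0.57, 95% interval -2.19 to 1.26, limma adjusted p = 0.752), and leaving out old replicate 1 turned it to 0.23. Without old replicate 2 it was -1.16.

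SLC40A1, the exporter, had 24.1 and 32.2 CPM in young livers, and 4.39 and 14.3 CPM in old replicates 1 and 2. All 4 counting intervals were apart, at 23.1 to 25.1 and 31.0 to 33.4 in the young livers and 3.88 to 4.94 (270 reads) and 13.4 to 15.2 (1028 reads) in the old livers. The old livers differed 3.26-fold from each other, more than the young livers, which differed 1.33-fold. The log2 fold change was -1.67 (SE 0.62, 95% interval -3.55 to 0.22, limma adjusted p = 0.354). It was -0.91 without old replicate 1 and -2.42 without old replicate 2, and both old livers remained below both young livers in each case and under each scaling. Under TMM, median-of-ratios and mRNA-read scaling the log2 fold change lay between -1.51 and -1.45.

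**Figure D2:**
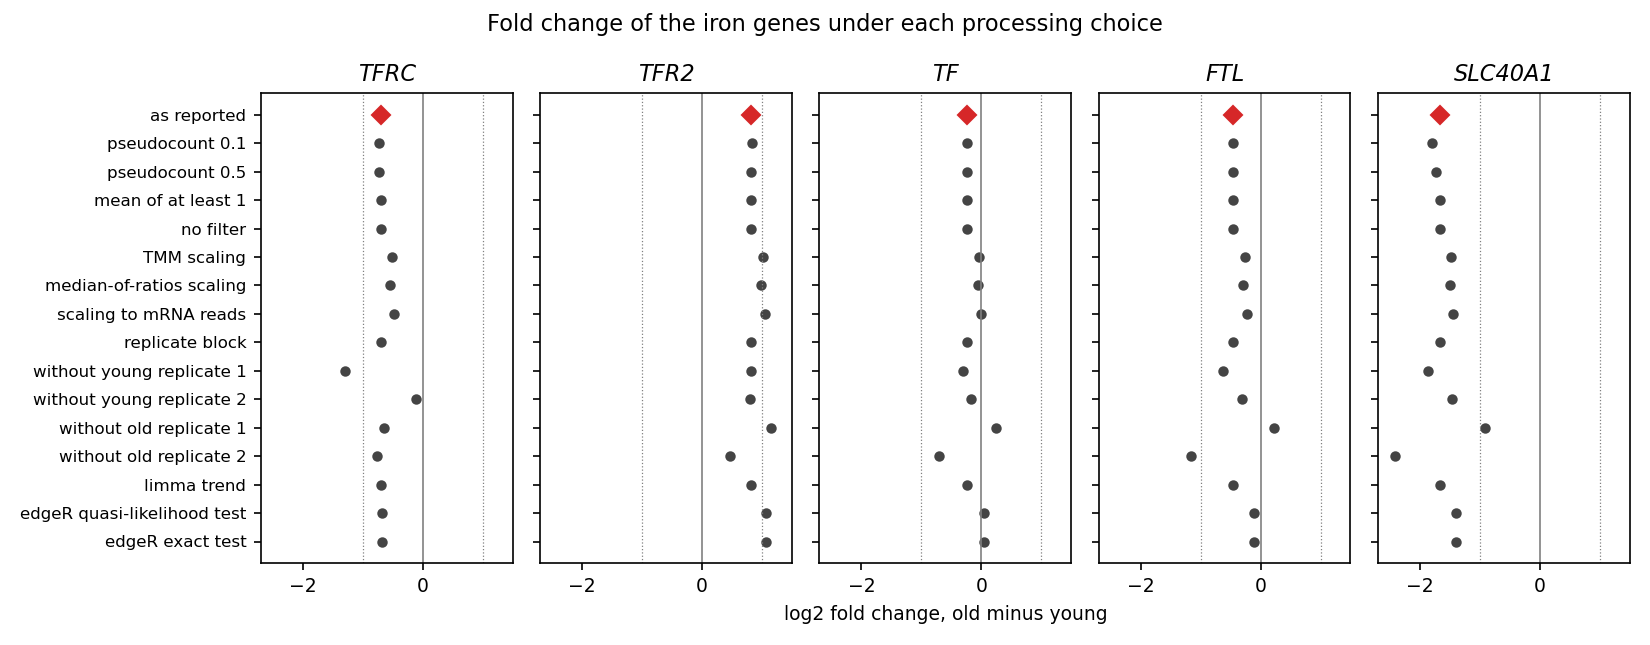
Log2 fold change between old and young livers for the 5 iron genes, as reported (red diamond) and under each of 15 other choices of processing, with dotted lines at -1 and 1. SLC40A1 stays below 0 and TFR2 above 0 throughout, TFRC comes nearest to 0 without young replicate 2, and TF and FTL cross 0 without old replicate 1, as TF does in both edgeR tests. The filters, the block and the variance model cannot move these fold changes.

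Ratios between genes of the same library do not depend on how that library was scaled. Of the 10 pairs among the 5 genes, 5 ratios were higher in both old livers, 1 was lower in both, and 4 overlapped. Every ratio that did not overlap held SLC40A1 or TFR2, which also did not overlap on their own, so these ratios largely restate those genes. The share of such ratios over all pairs of mRNAs was not computed. Since no gene length enters, a ratio is read only against the same ratio in another liver. The ratio of FTL to SLC40A1 was 188 and 176 in young livers against 516 and 415 in old livers. Storage transcript per export transcript thus differed little between the young livers, and was higher in both old livers whether the ferritin value was the lowest or the highest of the 4. The ratio of TF to SLC40A1 had the same order, 146 and 120 in young livers against 513 and 304 in old livers. The ratio of TFR2 to SLC40A1 was 1.71 and 1.27 in young livers against 13.0 and 6.46 in old livers.

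The ratio of TFRC to TFR2, the uptake receptor against the sensing receptor, was the ratio that was lower in both old livers. It was 0.315 and 0.756 in young livers against 0.1999 and 0.135 in old livers. TFR2 was higher in both old livers relative to TF (0.0117 and 0.0106 against 0.0254 and 0.0212) and to FTL (0.00908 and 0.00720 against 0.0252 and 0.0156). The ratio of TF to FTL stayed between 0.681 and 0.994, with overlapping ages. These ratios share genes and libraries, and are given without a test.

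**Figure D3:**
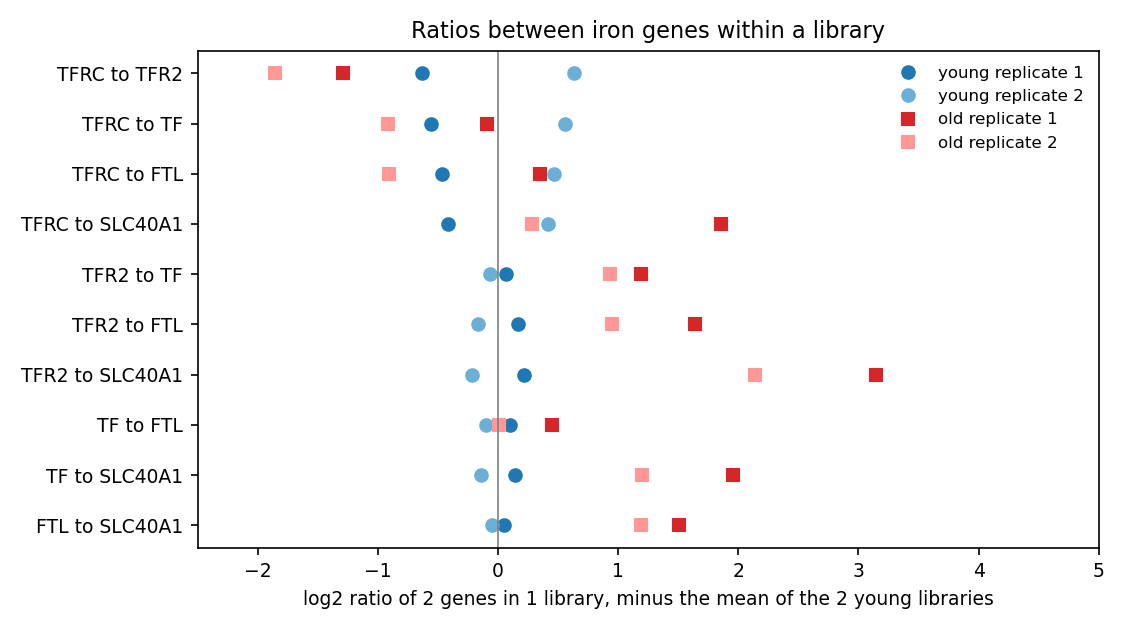
Log2 ratio of 2 iron genes within each library, shown relative to the mean of the young libraries, with circles for young and squares for old livers. Ratios with SLC40A1 as the second gene lie to the right in both old livers for TFR2, TF and FTL, and the ratio of TFRC to TFR2 lies to the left.

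Other genes of iron biology were taken from lists set by role, which held 84 genes, of which 63 had a row and 58 were above 0 in at least 2 libraries. None of the 58 passed the thresholds in limma, nor in the quasi-likelihood test or the exact test of edgeR on recovered reads, where 0% and 2.36% of all mRNAs did. Before adjustment, 4 were higher and 4 lower in old livers with a p-value under 0.05 in limma, 3 in all in the quasi-likelihood test and 2 in the exact test. The 8 of 58 in limma stand beside 15.7% of all mRNAs tested, and the 3 and 2 in the edgeR tests beside 14.6% and 11.3%. Both old livers were above both young livers for 8 of the 58 and below them for 15. Without old replicate 1, 21 of the 58 were higher and 20 lower than both young livers in old replicate 2, as 30.5% and 38.8% of all mRNAs then tested were. With all 4 libraries rescaled to their mRNA reads, the numbers higher and lower were 10 and 7, and over all mRNAs tested the shares moved from 24.4% higher and 25.0% lower to 30.1% higher and 17.7% lower.

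Of 7 measured genes in the list of iron regulatory proteins and iron sensing in the cytosol, 4 were lower in both old livers and 0 were higher. Over all mRNAs, 25.0% were lower and 24.4% higher, and the median log2 fold change of the 7 was -0.43. The same 4 were lower in both old livers under TMM, median-of-ratios and mRNA-read scaling, where 18.9%, 19.5% and 17.7% of all mRNAs were. With TMM scaling 1 of the 7 was higher in both, where 29.3% of all mRNAs were. Without old replicate 1, old replicate 2 lay below both young livers for the same 4 and above them for 2, beside 38.8% and 30.5% of all mRNAs then tested. The 4 lower genes were the iron regulatory proteins ACO1 and IREB2, FBXL5, the iron-binding ubiquitin ligase subunit that removes IREB2, and NCOA4, the receptor that delivers ferritin to autophagy. NCOA4 was at 36.8 and 39.7 CPM in young livers against 21.6 and 27.8 in old livers, a log2 fold change of -0.62 (SE 0.18, limma adjusted p = 0.285). FBXL5 was at 10.3 and 10.8 CPM against 7.75 and 7.46, and ACO1 at 7.91 and 8.40 against 4.599 and 6.27. IREB2 was at 0.904 and 1.26 CPM against 0.406 and 0.501, on 25 to 109 reads per library. The remaining 3 genes of this list, PCBP2, CUL1 and HERC2, overlapped between the ages and had log2 fold changes between -0.06 and 0.08.

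In the list of hepcidin control, 17 genes were measured, 3 of them higher and 4 lower in both old livers (24.4% and 25.0% of all mRNAs were), and the median log2 fold change was -0.01. With TMM, median-of-ratios and mRNA-read scaling, 4 were higher each time and 1, 1 and 0 were lower, where 29.3%, 28.6% and 30.1% of all mRNAs were higher and 18.9%, 19.5% and 17.7% lower. HJV (hemojuvelin), BMP2 and ID1 had no row. FURIN, the proprotein convertase that cleaves prohepcidin and hemojuvelin, was at 25.3 and 18.3 CPM in young livers against 49.4 and 54.8 in old livers, 2.39-fold higher. Its log2 fold change was 1.24 (SE 0.21, limma adjusted p = 0.223) and lay between 1.01 and 1.47 under every alternative. TMPRSS6, the hepatocyte protease that cuts hemojuvelin, overlapped at 17.1 and 20.9 CPM against 12.7 and 24.6. BMP6, an activator of hepcidin secreted by sinusoidal endothelium, was at 4.93 and 6.29 CPM against 3.62 and 10.1, and SMAD7, an inhibitor of the same signal, at 1.62 and 0.693 against 1.84 and 1.14. ATOH8, a transcription factor of the BMP response, was singled out after its values were seen, at 0.283 and 0.289 CPM against 0.910 and 1.07 on 25 to 77 reads.

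Of 7 measured genes of uptake, reduction and oxidation, 1 was higher and 2 were lower in both old livers, beside 24.4% and 25.0% of all mRNAs. SLC39A8, a membrane carrier of zinc, manganese and iron, was at 14.02 and 17.99 CPM in young livers against 4.83 and 8.01 in old livers. Its log2 fold change was -1.22 (SE 0.30, limma adjusted p = 0.256) and -0.91 without old replicate 1. Its relative SLC39A14 had no row. Ceruloplasmin (CP), the plasma ferroxidase that loads iron onto transferrin, was at 876 and 515 CPM in young livers against 819 and 438 in old livers, so the livers of each age differed more from each other than the ages did.

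Genes that handle haem and haemoglobin overlapped between the ages for 8 of 10, with 1 higher and 1 lower in both old livers beside 24.4% and 25.0% of all mRNAs. HPX, the plasma scavenger of haem, was at 3027 and 2939 CPM against 2609 and 3857. HP and CD163, the scavengers of haemoglobin, had no row. NFE2L2, a transcription factor of the oxidative stress response that acts on ferritin, ferroportin and HMOX1 genes, was at 21.0 and 46.5 CPM in young livers against 13.3 and 12.3 in old livers. Its log2 fold change was -1.23 (SE 0.45, limma adjusted p = 0.349), and it was -0.68 without young replicate 2 and -1.79 without young replicate 1. Young replicate 2 was thus the liver with the highest value of both NFE2L2 and TFRC.

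Of 10 genes of haem synthesis, 3 were lower and 1 was higher in both old livers, beside 25.0% and 24.4% of all mRNAs, with a median log2 fold change of -0.33 that was -0.08 without old replicate 1. Under TMM, median-of-ratios and mRNA-read scaling, 1 was lower and 1 higher each time. Over all mRNAs, 18.9%, 19.5% and 17.7% were then lower and 29.3%, 28.6% and 30.1% higher. ALAS1, the rate-limiting enzyme of haem synthesis in liver, was at 42.5 CPM in young replicate 1 and 1.05 in young replicate 2 (91 reads), and at 33.8 and 14.7 in the old livers, so the young pair spanned both old livers. Its log2 fold change was 1.31 (SE 1.79, limma adjusted p = 0.782), and it was -0.90 without young replicate 2. In the mitochondrial list, 2 of 7 genes were higher and 1 lower in both old livers, beside 24.4% and 25.0% of all mRNAs. Under each of the 3 rescalings 3 of the 7 were higher and 0 lower, beside the rescaled shares of all mRNAs given above. The iron-sulfur scaffold ISCU, singled out after its values were seen, was at 79.5 and 96.7 CPM against 30.7 and 76.4, and overlapped between the ages under the 3 rescalings.

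**Figure D4:**
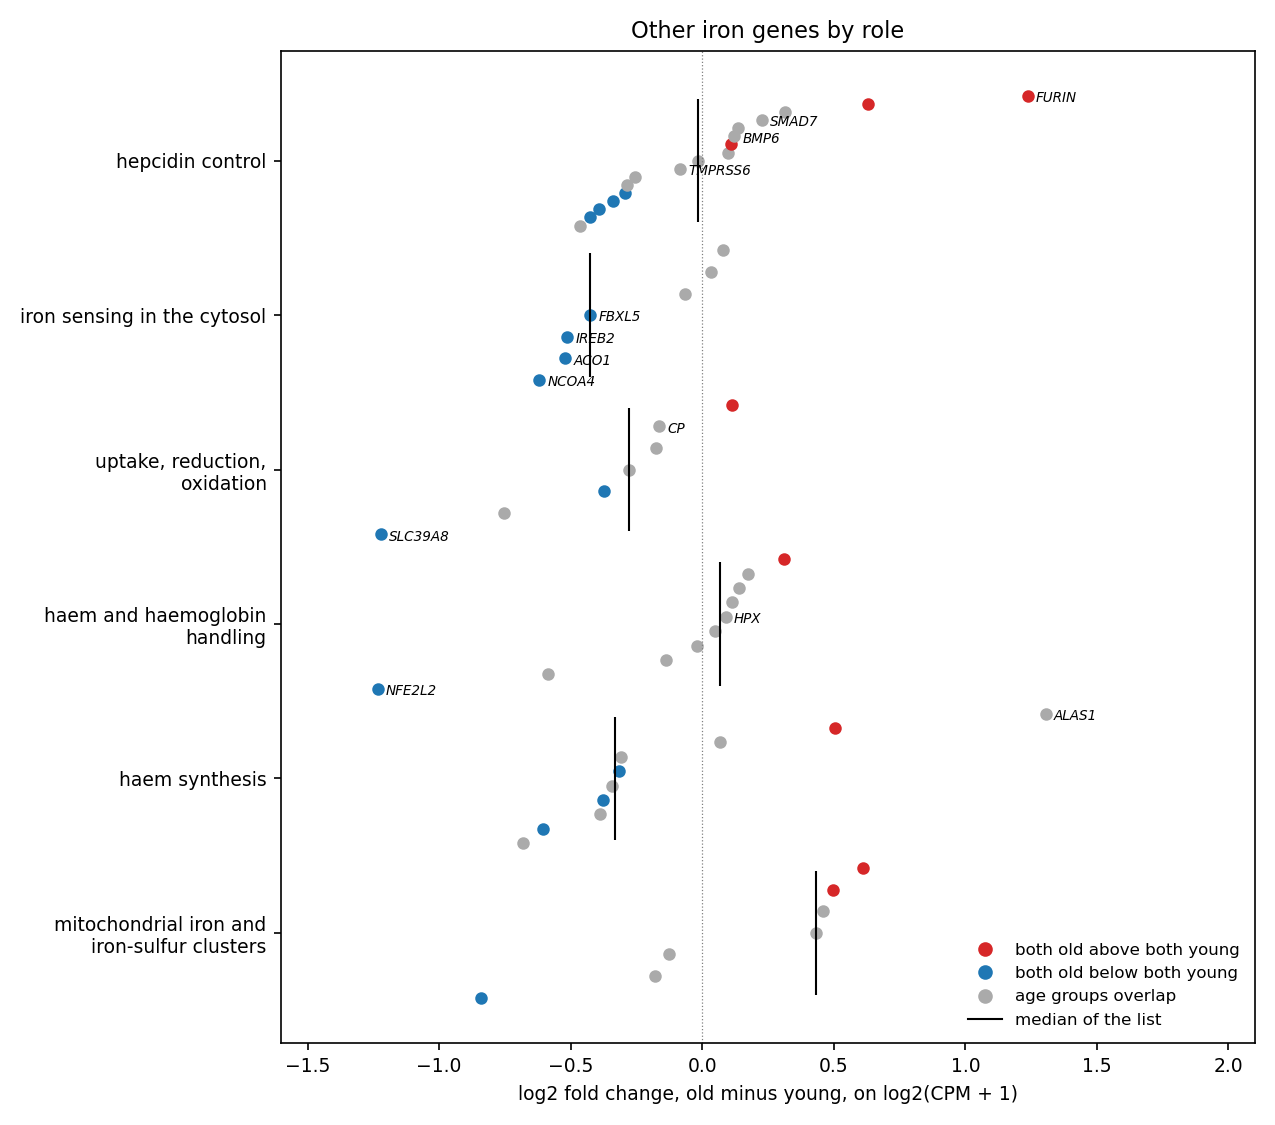
Log2 fold change between old and young livers, on log2(CPM + 1), of the 58 other iron genes by role, in red where both old livers were above both young livers, in blue where both were below and in grey where the ages overlapped, with labels on some of the genes named in the text. The black line is the median of each list, which was lowest for iron sensing in the cytosol (-0.43) and highest for the mitochondrial list (0.43). Without old replicate 1 these medians were -0.35 and 0.28 and that of the uptake list was -0.44, and without old replicate 2 the mitochondrial median was 0.05.

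Macrophages and hepatocytes both express ferroportin, and erythroid cells express TFRC, so the markers of these cells were set beside the iron genes. The 7 macrophage markers with a row, of 12 listed, summed to 243 and 275 CPM in young livers against 357 and 312 in old livers, and none was at 0 in all livers. Most of the sum was C1QA, a complement component made by macrophages, at 181 and 204 CPM against 255 and 242. CD68 was at 19.0 and 15.9 CPM against 28.9 and 27.4, and MARCO, a scavenger receptor of Kupffer cells, at 1.58 and 1.34 against 2.28 and 8.62. Of the same list, MRC1, the mannose receptor, was at 20.2 and 19.4 CPM against 9.88 and 12.5 and MSR1, a scavenger receptor, at 6.04 and 6.53 against 4.68 and 4.16. Thus 3 of the 7 were higher and 2 lower in both old livers, beside 24.4% and 25.0% of all mRNAs. CSF1R and TIMD4 overlapped. The 9 hepatocyte markers with a row, of 10 listed, summed to between 76970 and 87880 CPM in the young livers and between 49310 and 57730 in the old livers. ALB and APOC3 made up most of this sum. Of the 9, 5 were lower and 0 higher in both old livers on the deposited scale, beside 25.0% and 24.4% of all mRNAs. The other 4, TTR, APOA1, HNF4A and ASGR1, overlapped, with APOA1 at 1064 and 1156 CPM against 1898 and 894. Counts of markers were not repeated under the other scalings, with whose library factors at least CYP2E1 among the 5 overlaps. The median ratio of the 9 markers to the young mean was 0.597 in old replicate 1 and 0.752 in old replicate 2, where FTL had 0.445 and 1.17, TF 0.610 and 1.18, SLC40A1 0.156 and 0.509 and TFR2 1.40 and 2.26. The part of cell composition in these differences was not tested.

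Of the erythroid list, 8 of 13 genes had a row, TFRC among them, and the list summed to 635 and 460 CPM in young livers against 319 and 420 in old livers. HBB made up most of this sum, at 617 and 426 CPM against 302 and 402, while ALAS2, which erythroid cells use for haem synthesis, was at 4.71 and 3.55 against 3.53 and 3.15. HBM, a globin gene, was at 0.795 and 0 CPM against 1.71 and 2.16. Of the 7 erythroid genes tested 3 were higher and 3 lower in both old livers on the deposited scale, beside 24.4% and 25.0% of all mRNAs. TFRC is itself 1 of the 3 lower genes, with HBB and ALAS2. With the library factors of TMM, median-of-ratios or mRNA-read scaling, all 3 of these overlap between the ages. The 3 higher ones, HBM, EPB42 and KLF1, were at 2.16 CPM or less. The definers EPB42 and KLF1 were at 0 in both young livers and at 0.111 CPM or less in the old livers. They passed the filter of a value above 0 in 2 libraries through the old livers alone. Their place among the higher genes was thus fixed by the filter. Young replicate 2, the liver with the highest TFRC, had the lower HBB of the young pair. Of 16 acute phase and inflammation genes, 7 had a row, with IL6 at 0 in all 4 livers. They summed to 10230 and 6148 CPM in young livers, and to 14410 and 4510.0 CPM in old replicates 1 and 2. FGB made up most of this sum, at 7407 and 4366 CPM against 10370 and 3494. CRP, singled out after its values were seen, was at 360 and 217 CPM against 36.7 and 11.9. LCN2 had the opposite order, at 0.719 and 0.393 CPM against 1.71 and 1.99. Of the 6 that were tested, 1 was higher and 2 lower in both old livers, beside 24.4% and 25.0% of all mRNAs. SAA3 had no row. Endothelial markers, which include BMP6, summed to 48.3 and 45.3 CPM in young livers against 72.95 and 56.4 in old livers over the 6 of 12 with a row. Of these, PECAM1 was higher in both old livers, at 10.5 and 8.92 CPM against 23.8 and 13.8. TEK was lower in both on the deposited scale, at 9.42 and 8.67 against 3.14 and 8.01, but overlaps with the library factors of the rescalings. This 1 higher and 1 lower stand beside 24.4% and 25.0% of all mRNAs. The other 4 overlapped, among them KDR at 10.6 and 9.87 against 2.26 and 10.3 and LYVE1 at 8.90 and 8.01 against 36.5 and 7.49. Markers of stellate cells and fibroblasts summed to 19.4 and 38.5 CPM against 14.7 and 50.7 (7 of 9 with a row), of cholangiocytes to between 0.278 and 1.27 (3 of 5), and of lymphocytes to 7.26 and 10.9 against 27.1 and 9.97 (6 of 10). Their part in the values of the iron genes was not tested.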

How the data were processed

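Total RNA from the liver of each sow was depleted of rRNA and sequenced as paired-end reads. Per the submitters' processing notes and methods, the authors mapped the reads to the Sscrofa10.2 build by TopHat2 2.0.14, assembled transcripts by StringTie 1.2.3, and deposited values that they name TPM from Salmon 0.6.0. Each deposited value above 0 was a whole multiple of its library's single step (tolerance 0.1 step beyond rounding), so the values are treated as CPM and whole reads were recovered for 100% of them. The rows of mRNAs and lncRNAs together held between 28324675 and 52207649 reads per library. Symbols were joined through Ensembl identifiers, which 11654 of 21607 rows have. Old and young libraries were compared with limma 3.58.1 in R 4.3.3 on log2(value + 1), which understates the change of low genes, over the mRNAs that had a value above 0 in 2 or more libraries, with p-values adjusted over all of them by Benjamini and Hochberg. edgeR 4.0.16 was run on recovered reads. The fits were also run on simulated counts with planted changes. The replicate spread of these counts was set small and not estimated from these livers, so this tested the code alone. Alternatives covered the pseudocount, filter, scaling, variance model, replicate block, test and each library left out. Counting intervals are exact Poisson intervals at 95%. Python 3.11.15 and matplotlib 3.10.9 drew the figures.

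Named genes were the members, other iron genes with no overlap and an absolute log2 fold change above 1, and genes fixed for their role. The members and lists were chosen with earlier results of these data known. No batch is named in the labels. The deposited values of miRNAs and circRNAs were not used here, and neither sequences nor coordinates of these genes are given.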

Additional observations from a re-analysis of the deposited data

How the results depend on the processing

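With 2 livers per age, none of the 5 iron genes and none of the 58 other iron genes passed the thresholds as reported or under any of 15 alternatives, while over all mRNAs tested limma called 0, limma with a mean of at least 1 called 2 and the exact test of edgeR called 399 (345 higher and 54 lower). Without adjustment, between 0 and 2 of the 5 and between 2 and 8 of the 58 had a p-value under 0.05. Adjusted p-values of the alternatives lay between 0.279 and 0.569 for SLC40A1, 0.312 and 0.585 for TFR2, 0.370 and 0.905 for TFRC, 0.323 and 1 for FTL and 0.384 and 1 for TF. Under TMM, median-of-ratios and mRNA-read scaling, the last chosen after seeing the data, 1 of the 5 genes in place of 2 was lower in both old livers, as TFRC then overlapped. Over all mRNAs, 18.9%, 19.5% and 17.7% were lower in both under these scalings, in place of 25.0%. The median log2 fold change of all mRNAs was -0.02 as reported, 0.12 in edgeR and -0.15 with a mean of at least 1. Leaving out 1 library gave between 1 and 3 iron genes higher and between 2 and 4 lower in old livers, and a median log2 fold change of the 5 between -0.76 and 0.23. Over all mRNAs then tested, 30.5% were higher and 38.8% lower without old replicate 1, and 31.4% and 38.5% without old replicate 2.

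Of 269 log2 fold changes of the 18 named genes under alternatives, 246 kept their direction. The filters, the block and the variance model leave a fold change as it is, and the edgeR tests share nearly the same one. Part of this count was therefore fixed in advance and says nothing about stability. TF turned to 0.038 in both edgeR tests. TMPRSS6 turned to 0.10 with TMM, 0.082 with median-of-ratios, 0.14 with mRNA-read scaling and 0.17 in edgeR, and CP to 0.035, 0.011, 0.070 and 0.063. With 1 library left out, the log2 fold change lay between -0.71 and 0.24 for TF, -1.16 and 0.23 for FTL, -0.51 and 0.75 for BMP6, -0.53 and 0.36 for TMPRSS6, -0.089 and 0.54 for SMAD7, -0.62 and 0.29 for CP, -0.19 and 0.37 for HPX and -0.90 and 3.51 for ALAS1. The cause was not tested. The replicate numbers name unrelated sows and do not pair them (correlation of deviations 0.09). A replicate number as a block cannot change a fold change in this balanced layout, so SLC40A1 stayed at -1.67. Its adjusted p-value with the block was 0.344 (limma), and 0 mRNAs were called. The pseudocount, the variance model, the block and edgeR do not enter counts of overlap.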
